A study of Mus musculus with 12 samples.

Results

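The genes described here are 10 markers of myofibroblasts, pericytes and smooth muscle in the mouse kidney, picked by their symbols: Acta2, Tagln, Myl9, Myh11, Cnn1, Des, Pdgfra, Pdgfrb, Cspg4 and Gli1. They are 10 of the 40213 genes in the deposited tables, and all 10 were among the 17841 genes tested. RNA was sequenced from C57BL/6 mouse kidney tissue, with 3 groups and 4 libraries in each. The CKD+colchicine group received an adenine diet and intraperitoneal colchicine at 0.3 mg/kg/day, the CKD (chronic kidney disease) group a 2% adenine diet with intraperitoneal saline, and the control group a normal diet with intraperitoneal saline. The labels give the adenine content as 2, 3, 4 and 5% in colchicine replicates 1, 2, 3 and 4, although the design text describes a single adenine model, so colchicine and a higher labelled adenine content cannot be told apart in replicates 2 to 4. The design text speaks of biological replicates without naming the animals, so each p-value rests on the spread between these samples. That spread was estimated over all 3 groups together.

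Adenine in the diet forms crystals in the tubules and is used as a model of tubular injury with interstitial scarring, and colchicine is a plant alkaloid that binds tubulin. In a healthy kidney, smooth muscle surrounds arteries and arterioles and pericytes lie along the capillaries, while resident fibroblasts sit between the tubules. In scarring kidneys, pericytes and fibroblasts become myofibroblasts, which gain part of the contractile machinery of smooth muscle and lay down collagen. Platelet-derived growth factor (PDGF) acts on such cells through the receptors encoded by Pdgfra and Pdgfrb, and Hedgehog ligands act through the transcription factor encoded by Gli1. Contractile genes are driven in part by serum response factor with its partners of the myocardin family, which bind the CArG box.

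Start-site sequences were matched for 6 of the 10 genes in a RefSeq promoter table of the GRCm38.p6 build, and 3 of them are printed because their genes stand for the different behaviours reported here. Acta2 and Myl9 were higher in CKD kidneys than in control kidneys, and Cnn1 was lower when libraries were scaled by trimmed means. Each run holds the 250 bases before the annotated start, 5′ to 3′ along the gene's own strand, with capitals marking CArG boxes that match exactly or with at most 1 base off. Acta2 lies at chr19:34255374-34255623 on the minus strand, Myl9 at chr2:156775214-156775463 and Cnn1 at chr9:22099003-22099252, both on the plus strand.
Acta2: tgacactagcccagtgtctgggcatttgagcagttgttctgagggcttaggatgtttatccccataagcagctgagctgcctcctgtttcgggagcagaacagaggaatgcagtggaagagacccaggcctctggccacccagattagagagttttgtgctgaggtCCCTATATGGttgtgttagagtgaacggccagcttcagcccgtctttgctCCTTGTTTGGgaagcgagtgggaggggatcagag
Myl9: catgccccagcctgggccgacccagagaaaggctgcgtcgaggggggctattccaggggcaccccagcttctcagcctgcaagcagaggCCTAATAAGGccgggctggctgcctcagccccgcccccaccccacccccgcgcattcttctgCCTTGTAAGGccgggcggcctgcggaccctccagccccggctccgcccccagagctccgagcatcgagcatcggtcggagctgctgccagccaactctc
Cnn1: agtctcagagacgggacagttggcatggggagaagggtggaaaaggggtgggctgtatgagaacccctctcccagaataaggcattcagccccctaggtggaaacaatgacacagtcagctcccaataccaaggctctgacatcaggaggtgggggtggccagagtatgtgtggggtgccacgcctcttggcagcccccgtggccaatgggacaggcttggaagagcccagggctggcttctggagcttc

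Acta2 held 2 boxes with 1 base off, CCCTATATGG at -84 to -75 and CCTTGTTTGG at -34 to -25 from the start. Myl9 held an exact box, CCTAATAAGG, at -161 to -152 and a box with 1 base off, CCTTGTAAGG, at -99 to -90. Cspg4 held a pair of overlapping 1-base-off matches that start at -238 and -237, and the windows of Cnn1, Des and Pdgfra held none. With trimmed means, Des and Pdgfra were higher in CKD than in control (2.14-fold and 3.07-fold), while Cnn1 was lower. The box reads alike on both strands, so 1 search covers both. Among all 32851 promoters in the table, 1.47% held an exact box in a window of the same length and 18.6% an exact or 1-base-off box. These matches describe letters in the windows and not sites of binding. Tagln, Myh11, Pdgfrb and Gli1 are named only.

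Library totals, in units of 1000000 counts, were 23.9 to 38.3 with colchicine, 22.2 to 27.4 in CKD and 22.6 to 31.7 in control. Mitochondrially encoded transcripts took 14.6 to 21.8% of the counts with colchicine, 16.7 to 17.3% in CKD and 41.5 to 46.7% in control, so the choice of scaling bears on every comparison with control. The labels put all libraries in batch 1. Values below are counts per 1000000 scaled by trimmed means of M-values (CPM), and genes were called at an adjusted p below 0.05 by edgeR's quasi-likelihood test over all genes. The median log2 fold change of all genes tested for CKD against control was 0.04 with this scaling, 0.17 with upper-quartile scaling, 0.48 with library totals without mitochondrially encoded transcripts and 1.05 with library totals only. The numbers called higher and lower were 6076 and 5952 with trimmed means, 7118 and 5092 with upper quartiles, 9545 and 3495 without mitochondrially encoded transcripts and 13197 and 1850 with library totals only. In whole tissue, fewer cells of a type and less RNA per cell cannot be told apart.

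In CKD kidneys 8 of the 10 genes were higher and 2 lower than in control kidneys, and no gene's CKD libraries overlapped its control libraries. Such separation was common, with 33.2% of all genes tested lying wholly above control and 33.0% wholly below. Actin and the small actin-binding protein of the contractile apparatus rose with both PDGF receptors and Gli1, while the smooth muscle myosin heavy chain Myh11 and calponin Cnn1 were lower with trimmed-mean scaling and, with library totals only, had positive values that were not called. The median log2 fold change of the 10 genes was 1.09, against 0.04 for all genes. Of all genes tested, 34.1% were called higher and 33.4% lower in CKD than in control, the background for these counts.

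**Figure D1:**
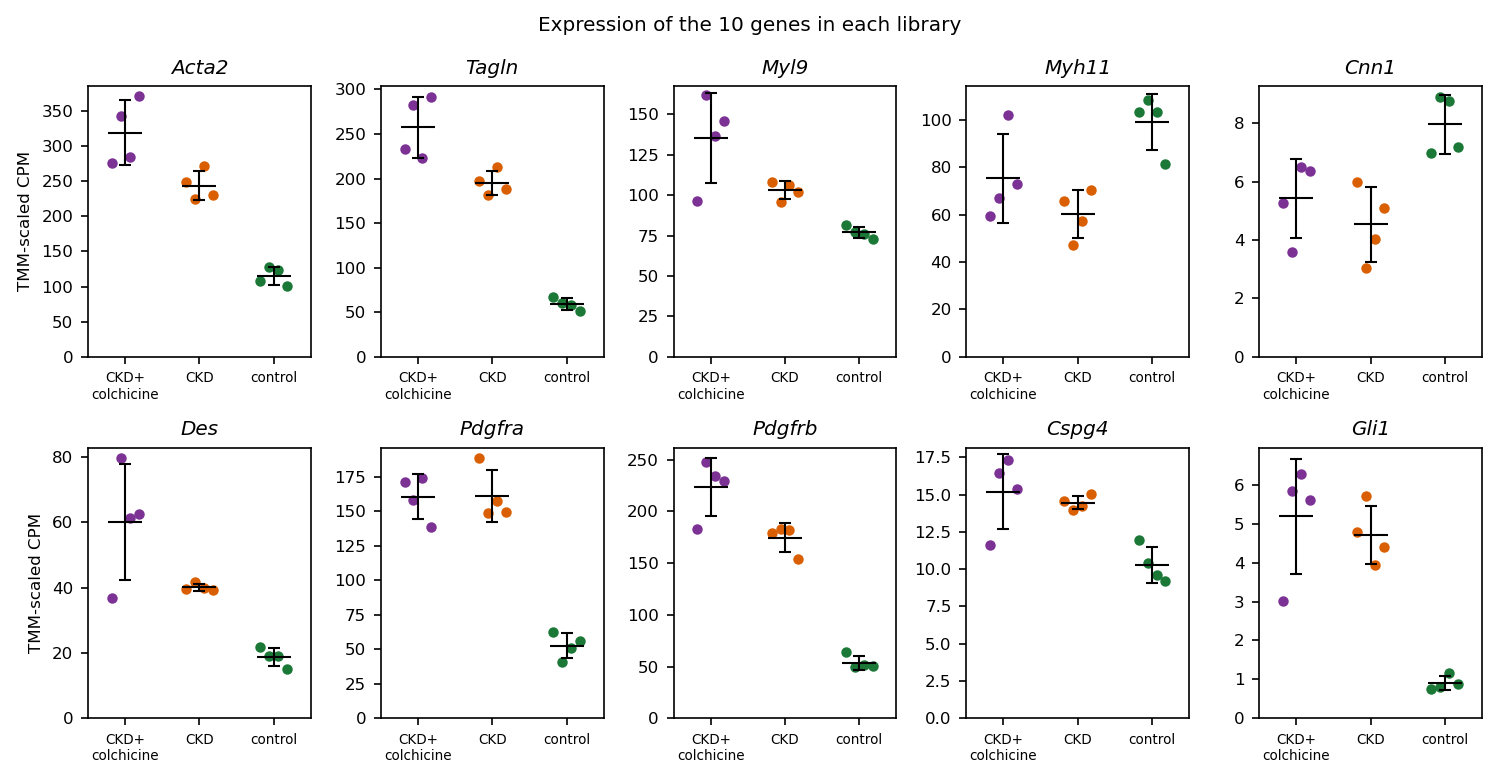
Expression of the 10 genes in each library. Points are single libraries in TMM-scaled CPM (linear axes from 0), horizontal bars are group means and error bars are SD (n = 4); with this scaling Acta2, Tagln, Myl9, Des, Pdgfra, Pdgfrb, Cspg4 and Gli1 lie higher in CKD than in control, while Myh11 and Cnn1 lie lower, and the direction of these 2 turns with library totals only (log2 fold changes of 0.30 and 0.20).

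Acta2 encodes smooth muscle alpha-actin, the filament that marks myofibroblasts. It measured 248, 224, 271 and 231 CPM in the 4 CKD libraries, against 108, 128, 124 and 101 CPM in the control libraries. Every CKD library lay above every control library, and the level was 2.12-fold higher, a log2 fold change of 1.08 ± 0.11 (SE; edgeR adjusted p = 3.73e-07). Tagln, which encodes transgelin, an actin-bundling protein of smooth muscle, measured 197, 182, 213 and 188 CPM in CKD libraries and 67.0, 60.9, 57.8 and 51.4 CPM in control libraries. Its increase was 3.29-fold (log2 1.72 ± 0.10, edgeR adjusted p = 1.13e-09). Myl9, the regulatory light chain of smooth muscle myosin, measured 108, 95.7, 107 and 102 CPM in CKD libraries and 81.6, 77.5, 75.7 and 73.0 CPM in control libraries. The groups stayed apart, with a smaller increase of 1.34-fold (log2 0.42 ± 0.12, edgeR adjusted p = 0.00558). Reads of Acta2 and Myl9 may be shared with close relatives. The muscle actins Actg2, Acta1 and Actc1 held at most 251, 15 and 39 counts in any library, while the light chains Myl12a and Myl12b held at least 2402 and 3687. Against the relatives counted, the Myl9 value is the less certain one. The cytoplasmic actins were not counted, so reads that Acta2 may share with them were not assessed.

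Myh11, the motor protein of differentiated smooth muscle, measured 66.0, 47.2, 57.5 and 70.4 CPM in CKD libraries, against 103, 108, 104 and 81.6 CPM in control libraries. All 4 CKD libraries lay below all 4 control libraries, 1.65 times lower (log2 -0.72 ± 0.16, edgeR adjusted p = 0.00125), whereas with library totals only the log2 fold change was 0.30 (adjusted p = 0.101), under the median of 1.05 for all genes with that scaling. Cnn1 encodes calponin, which restrains the myosin motor in mature smooth muscle. It measured 5.98, 3.03, 4.02 and 5.11 CPM in CKD libraries and 6.995, 8.91, 8.76 and 7.19 CPM in control libraries. These groups also stayed apart, with CKD 1.76 times lower (log2 -0.81 ± 0.22, edgeR adjusted p = 0.00392) and, with library totals only, a log2 fold change of 0.20 (adjusted p = 0.398). Without mitochondrially encoded transcripts the log2 fold changes were -0.27 for Myh11 and -0.36 for Cnn1 and neither was called.

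Des encodes desmin, the intermediate filament of muscle that pericytes and mesangial cells also carry. It measured 39.6, 41.7, 39.9 and 39.2 CPM in CKD libraries, a narrow range, and 21.8, 19.0, 19.1 and 15.2 CPM in control libraries. The level was 2.14-fold higher (log2 1.09 ± 0.18, edgeR adjusted p = 0.000103).

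Pdgfra encodes the PDGF receptor found mainly on fibroblasts. It measured 189, 149, 158 and 149.7 CPM in CKD libraries and 62.6, 41.0, 50.8 and 56.3 CPM in control libraries. Pdgfrb, the receptor of pericytes and mesangial cells, measured 179, 183, 182 and 154 CPM in CKD libraries and 63.9, 49.3, 51.7 and 50.4 CPM in control libraries. Both receptors were well separated between the groups, at 3.07-fold for Pdgfra (log2 1.62 ± 0.12, edgeR adjusted p = 1.65e-08) and 3.24-fold for Pdgfrb (log2 1.70 ± 0.11, edgeR adjusted p = 1.88e-09). Cspg4, which encodes the surface proteoglycan NG2 of pericytes, measured 14.6, 14.0, 14.2 and 15.01 CPM in CKD libraries and 12.0, 10.4, 9.59 and 9.22 CPM in control libraries. Its increase was among the smaller ones of the 10, at 1.40-fold (log2 0.49 ± 0.12, edgeR adjusted p = 0.00237).

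Gli1 marks perivascular cells that give rise to myofibroblasts in mice, and it is itself a target of Hedgehog signalling. It measured 4.78, 5.70, 3.93 and 4.41 CPM in CKD libraries, against 0.758, 0.815, 1.16 and 0.870 CPM in control libraries. Control libraries held 13 to 17 counts each, so this low level rests on few reads. The increase of 5.24-fold was the largest of the 10 with trimmed-mean scaling (log2 2.39 ± 0.26, edgeR adjusted p = 7.29e-07).

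Ratios of counts between a pair of these genes within a library do not depend on scaling, although they are not corrected for gene length and show only unequal change. The ratio of Acta2 to Myh11 was 4.13 on average in CKD libraries (3.28 to 4.75), against 1.16 in control libraries (1.05 to 1.23). The ratio of Tagln to Myh11 was 3.30 in CKD (2.67 to 3.86) and 0.600 in control (0.558 to 0.649), and that of Tagln to Cnn1 was 45.7 in CKD (32.9 to 60.1) and 7.54 in control (6.59 to 9.58). None of these 3 ratios overlapped between the groups. Myl9 against Myh11 also separated, at 1.74 in CKD (1.45 to 2.03) and 0.783 in control (0.714 to 0.896). The ratio of Cnn1 to Myh11 overlapped, at 0.0743 in CKD (0.0642 to 0.0906) and 0.0807 in control (0.0678 to 0.0881), and so did that of Pdgfrb to Pdgfra, at 1.09 in CKD (0.948 to 1.23) and 1.03 in control (0.896 to 1.20). Acta2 and Tagln did not keep step, their ratio being 1.25 in CKD (1.23 to 1.27) and 1.95 in control (1.62 to 2.14).

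**Figure D2:**
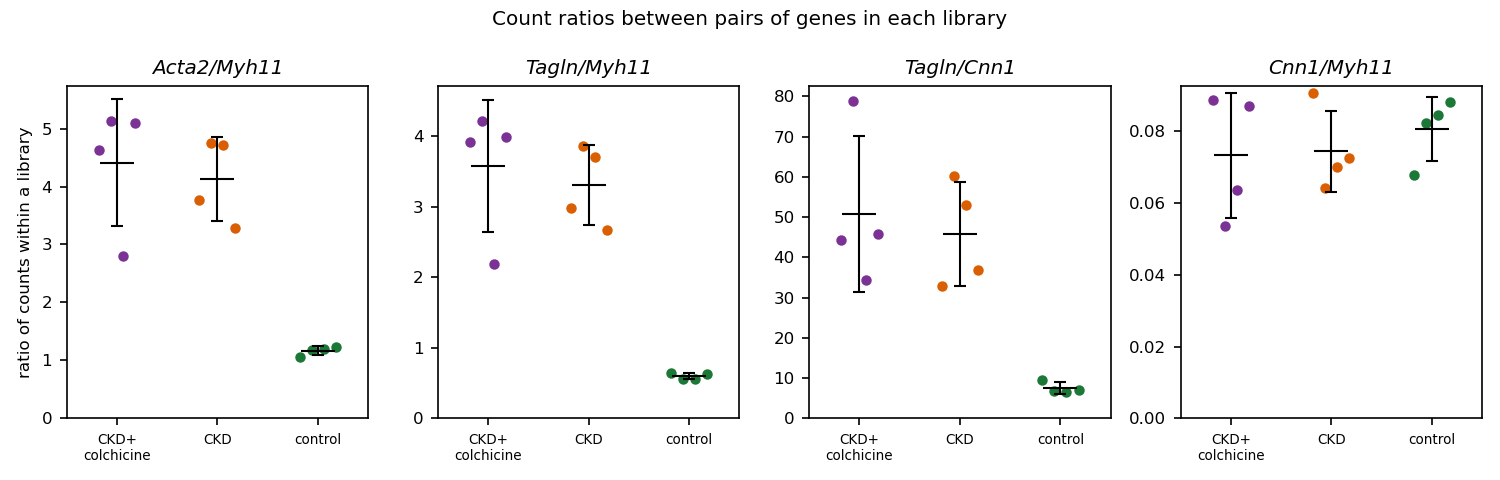
Ratios of counts between 2 genes within each library (linear axes from 0, no unit). Points are libraries, horizontal bars means and error bars SD (n = 4 per group); the ratios of Acta2 to Myh11 and of Tagln to Myh11 or Cnn1 are higher in all 8 libraries from mice on adenine than in control, while Cnn1 to Myh11 overlaps between all 3 groups.

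Other contractile genes of smooth muscle split as well. Of 23 tested, 11 were higher and 5 lower in CKD than in control, against shares of 34.1% and 33.4% over all genes. Their median log2 fold change was 0.11. The actin crosslinker Flna rose to 366 ± 15.9 CPM in CKD, against 76.1 ± 3.80 CPM in control (SD, n = 4), the tropomyosin Tpm1 to 712 ± 31.0 against 192 ± 4.12 CPM, and caldesmon Cald1 to 309 ± 31.4 against 90.3 ± 9.06 CPM. These 3 are also made by many cells that are not muscle. The lower genes included Synpo2, Ppp1r14a, Hspb6 and Map3k7cl, named after their values were seen, at -0.38, -0.87, -0.61 and -1.72 on the log2 scale. With library totals only, Synpo2, Ppp1r14a and Hspb6 had positive values (0.64, 0.14 and 0.40), and 21 genes of the list were called higher and 1 lower, where 74.0% of all genes were higher and 10.4% lower. The gamma smooth muscle actin Actg2 measured 3.91 ± 1.11 CPM in CKD and 4.08 ± 1.34 CPM in control and was not called (log2 -0.06 ± 0.28, edgeR adjusted p = 0.864).

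Of 20 further genes of pericytes and mural cells, 9 were higher and 6 lower in CKD than in control with trimmed means, against shares of 34.1% and 33.4% over all genes. With library totals only 14 were higher and 0 lower, a count near the 74.0% of all genes called higher with that scaling. The median log2 fold change was 0.45 with trimmed means. The endothelin receptor Ednra measured 23.8 ± 1.77 CPM in CKD and 3.58 ± 0.388 CPM in control (log2 2.73 ± 0.13), and the guanylate cyclase subunit Gucy1a1 102 ± 7.11 CPM in CKD and 24.4 ± 3.25 CPM in control (2.06 ± 0.10). Notch3, the Notch receptor of mural cells, stood at 39.2 ± 1.69 CPM in CKD and 17.5 ± 3.03 CPM in control (1.17 ± 0.10). The pericyte marker Rgs5 rose less, to 131 ± 2.83 CPM in CKD, against 91.2 ± 3.33 CPM in control (0.53 ± 0.09). The potassium channel subunits Kcnj8 and Abcc9, which mark pericytes, were among the 6 lower genes, at -0.60 and -0.95 on the log2 scale, and both had positive values with library totals only (0.41 and 0.05). They were named after their values were seen.

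Among 10 other genes of PDGF signalling, 7 were higher and 1 lower in CKD than in control, against 34.1% and 33.4% of all genes. Their median log2 fold change was 0.79. Of the 4 ligands, 3 rose, Pdgfa by 0.68 ± 0.13, Pdgfb by 1.17 ± 0.14 and Pdgfd by 1.24 ± 0.15 on the log2 scale, while Pdgfc stood at 18.4 ± 1.03 CPM in CKD and 18.7 ± 3.93 CPM in control (log2 -0.03 ± 0.16, edgeR adjusted p = 0.904). The receptor-like gene Pdgfrl measured 10.7 ± 1.56 CPM in CKD and 1.37 ± 0.219 CPM in control, and the sphingosine kinase Sphk1 28.5 ± 4.17 CPM in CKD and 4.70 ± 1.26 CPM in control. The protease Furin, which can cleave PDGF precursors, was the lower gene (log2 -0.72 ± 0.08), and with library totals only it was higher (0.30).

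Of 16 other genes of the Hedgehog pathway, 6 were higher and 4 lower in CKD than in control, near the shares of 34.1% and 33.4% over all genes, with a median log2 fold change of 0.20. With library totals only 14 were higher and 0 lower, where 74.0% of all genes were called higher and 10.4% lower. The transcription factor Gli3 rose to 5.11 ± 0.412 CPM in CKD, against 1.18 ± 0.262 CPM in control (log2 2.11 ± 0.17). The kinesin Kif7 rose by 1.65 ± 0.23 on the log2 scale. Ptch1, a receptor that is also a target of the pathway, measured 24.8 ± 1.43 CPM in CKD and 40.3 ± 2.39 CPM in control (log2 -0.70 ± 0.08, edgeR adjusted p = 2.55e-06), although with library totals only it stood at 0.31. The decoy receptor Hhip, another target, and the transducer Smo were lower by the same test (log2 -0.90 ± 0.33 and -0.23 ± 0.07, edgeR adjusted p = 0.0269 and 0.0103), while with library totals only Smo was called higher (0.78) and Hhip, at 0.12, was not called (adjusted p = 0.758). The fourth lower gene was the inhibitor Sufu (-0.45), named after its values were seen, at 0.56 with library totals only. The ligands Shh and Ihh (log2 -0.75 ± 0.42 and -0.29 ± 0.22) and the transcription factor Gli2 (0.12 ± 0.24) were not called.

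Regulators of the contractile and mesenchymal programme were mostly higher, 14 of 16 in CKD against control and 1 lower. The shares over all genes were 34.1% and 33.4%, and the median log2 fold change of the 16 was 0.93. Myocardin, encoded by Myocd and the main coactivator of smooth muscle genes, measured 4.40 ± 0.410 CPM in CKD and 1.60 ± 0.220 CPM in control (log2 1.45 ± 0.17). The related coactivators Mrtfa and Mrtfb rose by 1.29 ± 0.11 and 0.65 ± 0.08, while their partner Srf was not called, at 24.5 ± 1.27 CPM in CKD and 23.0 ± 2.30 CPM in control (0.09 ± 0.11, edgeR adjusted p = 0.493). Myocd thus lay higher in the kidneys in which Myh11 and Cnn1 lay lower with trimmed means and, with library totals only, had positive values that were not called. The transcription factors Gata6, Prrx1 and Snai2 rose by 2.38 ± 0.15, 2.17 ± 0.17 and 1.28 ± 0.09. The lower gene was the homeobox gene Meox2 (-3.46 ± 0.50), named after its values were seen.

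All 22 fibroblast and matrix genes listed were higher in CKD than in control, against 34.1% of all genes. Their median log2 fold change was 2.45. Collagen Col1a1, the main product of myofibroblasts, measured 1295, 1224, 1298 and 1125 CPM in CKD libraries and 113, 85.9, 83.1 and 86.1 CPM in control libraries (log2 3.75 ± 0.11). The surface glycoprotein Thy1 and the gelatinase Mmp2 rose by 4.39 ± 0.13 and 4.57 ± 0.14.

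Markers of other cells moved with the same contrast, in which 34.1% of all genes were called higher and 33.4% lower. The summed level of 10 endothelial markers was 562 to 626 CPM in CKD and 824 to 922 CPM in control, with 9 lower by trimmed means and, with library totals only, 8 higher and 1 lower. The 8 macrophage markers summed to 1635 to 1691 CPM in CKD and 95.5 to 114 CPM in control, all 8 higher. The 8 proximal tubule markers summed to 1137 to 1457 CPM in CKD and 13498 to 14787 CPM in control, all 8 lower. The 6 podocyte markers summed to 299 to 378 CPM in CKD and 308 to 355 CPM in control, with 3 higher and 2 lower. The 4 erythrocyte markers summed to 32.0 to 92.5 CPM in CKD and 169 to 496 CPM in control, all 4 lower. The 5 urothelial markers, with 1 higher and 2 lower, summed to 15.2 to 39.2 CPM in CKD and 20.6 to 38.9 CPM in control, and the 5 adipocyte markers to 51.5 to 239.7 CPM in CKD and 189 to 382 CPM in control. Of the 4 adipocyte markers tested, edgeR called 0 (0 at an unadjusted p below 0.05), while DESeq2 and limma-voom each called 1 lower. The part of these shifts in the values of the 10 genes was not tested. Striated muscle and glia also use Des, Acta2, Cspg4 or Pdgfra. The 12 striated muscle genes summed to 3.45 to 4.92 CPM in CKD and 3.13 to 8.98 CPM in control, and 7 glial genes to 28.5 to 35.03 CPM in CKD and 17.1 to 20.8 CPM in control, with Olig2, a marker of NG2 glia, at 0 in all 12 libraries. Of the striated muscle markers, Myh1 was at 0 in 9 libraries and the creatine kinase Ckm in 5. The glial sum did not overlap between CKD and control, and its part in the values of Cspg4 and Pdgfra was not tested.

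In colchicine kidneys, 5 of the 10 genes were higher than in CKD kidneys and 0 lower by edgeR, where 6.79% of all genes were called higher and 8.24% lower. They were the contractile genes Acta2, Tagln and Myl9, the desmin gene Des and the receptor gene Pdgfrb, each 1.28 to 1.496 times the CKD level. At an unadjusted p below 0.05 there were also 0 lower, and DESeq2 and limma-voom likewise called 5 higher and 0 lower. The median log2 fold change of the 10 genes was 0.34, against 0.03 for all genes.

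Acta2 measured 275, 343, 285 and 372 CPM in colchicine libraries 1 to 4, against the 224 to 271 CPM of the CKD libraries. Tagln measured 233, 282, 223 and 291 CPM, against 182 to 213 CPM in CKD. For both genes every colchicine library lay above every CKD library, with log2 fold changes of 0.39 ± 0.11 (edgeR adjusted p = 0.0281) and 0.40 ± 0.10 (edgeR adjusted p = 0.0188). Pdgfrb measured 183, 248, 234 and 229 CPM with colchicine, against 154 to 183 CPM in CKD, so that replicate 1 barely cleared the highest CKD library (log2 0.36 ± 0.10, edgeR adjusted p = 0.0350). Over all genes tested, 8.92% lay wholly above CKD with colchicine and 9.29% wholly below. Among the genes described here, 3 lay wholly above CKD, 0 wholly below and 7 overlapped. Myl9 measured 96.7, 162, 137 and 146 CPM with colchicine, against 95.7 to 108 CPM in CKD. Des measured 36.7, 79.6, 61.2 and 62.4 CPM with colchicine, against 39.2 to 41.7 CPM in CKD. In both, colchicine replicate 1 lay within or below the CKD range and the other 3 lay above it (log2 0.39 ± 0.12 for Myl9 and 0.58 ± 0.17 for Des, edgeR adjusted p = 0.0397 and 0.0402).

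The calls of these 5 genes depended on single libraries. Without CKD replicate 2, CKD replicate 4, colchicine replicate 2 or colchicine replicate 4, 0 of the 10 genes were called higher; without CKD replicate 1, only Tagln was called, and without CKD replicate 3 or colchicine replicate 3, Acta2 and Tagln were. Their log2 fold changes stayed between 0.29 and 0.60 in these 7 fits. Without colchicine replicate 1 all 5 were called, with log2 fold changes of 0.44 to 0.45 for Acta2, Tagln and Pdgfrb, 0.52 for Myl9 and 0.75 for Des.

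The other 5 genes were not called. Pdgfra measured 172, 158, 174 and 139 CPM with colchicine, against 149 to 189 CPM in CKD, and the 95% interval of the log2 fold change ran from -0.26 to 0.25. Myh11 measured 59.4, 66.9, 102 and 73.1 CPM with colchicine and 47.2 to 70.4 CPM in CKD (interval -0.02 to 0.67, edgeR adjusted p = 0.178). Cnn1 measured 5.27, 3.58, 6.49 and 6.37 CPM with colchicine and 3.03 to 5.98 CPM in CKD (interval -0.20 to 0.71). These intervals leave room for increases in Myh11 and Cnn1 of the size seen in Acta2. Cspg4 measured 11.6, 16.5, 17.3 and 15.4 CPM with colchicine and 14.0 to 15.01 CPM in CKD (interval -0.18 to 0.32). Gli1 measured 3.02, 5.84, 6.28 and 5.6004 CPM with colchicine and 3.93 to 5.70 CPM in CKD (interval -0.30 to 0.59). For Cspg4 and Gli1 colchicine replicate 1 was the lowest of the 8 libraries.

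**Figure D3:**
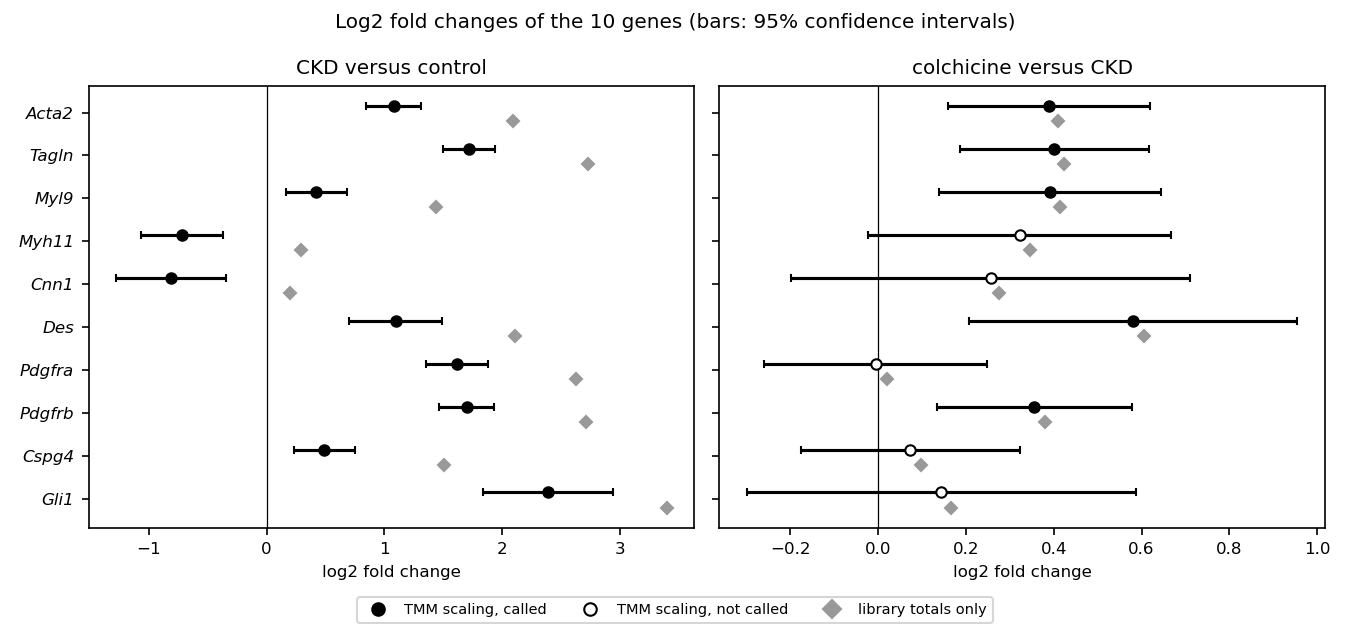
Log2 fold changes of the 10 genes for CKD against control (left) and colchicine against CKD (right, on a different scale). Circles with 95% intervals come from edgeR with TMM scaling, filled where the adjusted p is below 0.05, and diamonds from library totals only, which place Myh11 and Cnn1 above 0 in CKD against control (0.30 and 0.20, against -0.72 and -0.81) and move the median of the right panel to 0.36, against 0.34.

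Colchicine replicate 1 is the library whose adenine label, 2%, equals that of the CKD group. In it Acta2 and Tagln lay above the CKD range and Pdgfrb level with its top, Myl9, Myh11, Cnn1 and Pdgfra lay within the range, and Des, Cspg4 and Gli1 lay below it. Set alone against the 4 CKD libraries, its log2 fold changes were 0.17 for Acta2, 0.25 for Tagln, 0.06 for Pdgfrb, -0.10 for Myl9, -0.14 for Des, -0.32 for Cspg4 and -0.65 for Gli1. These are the values of 1 library and carry no estimate of its own spread. Its mitochondrial share was the lowest of the 12 libraries, at 14.6%. Leaving out colchicine replicates 2 and 3, an alternative chosen after seeing the data, 0 of the 10 genes were called, with log2 fold changes of 0.41 for Acta2 and 0.43 for Tagln.

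**Figure D4:**
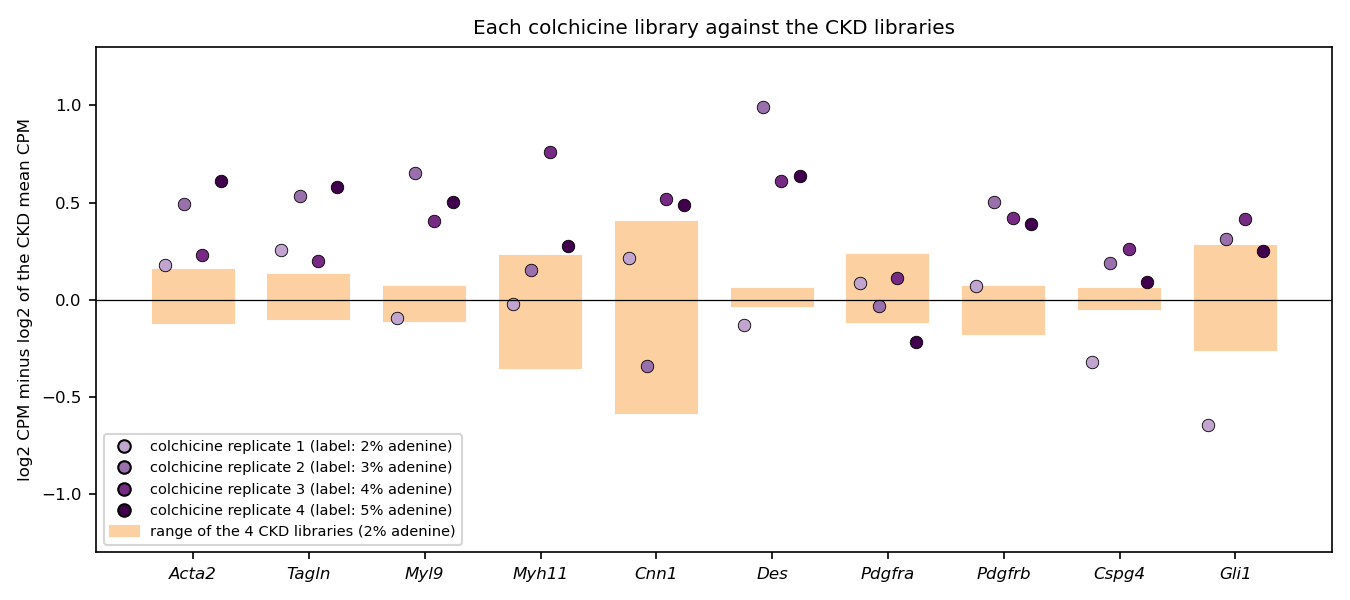
Each colchicine library against the CKD libraries, as log2 CPM (TMM scaling) minus the log2 of the CKD mean. Circles are the 4 colchicine libraries, darker with a higher adenine percentage in the labels, and bars span the 4 CKD libraries; Des, Cspg4 and Gli1 in replicate 1 lie below the bars while Acta2 and Tagln lie above them in all 4 libraries.

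Count ratios between the genes overlapped between colchicine and CKD. The ratio of Acta2 to Myh11 was 4.41 on average with colchicine (2.80 to 5.12) and 4.13 in CKD (3.28 to 4.75), that of Acta2 to Tagln 1.24 with colchicine (1.18 to 1.28) and 1.25 in CKD (1.23 to 1.27), and that of Pdgfrb to Pdgfra 1.41 with colchicine (1.07 to 1.65) and 1.09 in CKD (0.948 to 1.23). Whether Pdgfrb and Pdgfra respond differently was not tested beyond these ranges.

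In the other contractile genes 6 of 23 were higher with colchicine than in CKD and 0 lower by edgeR (2 lower at an unadjusted p below 0.05), with a median log2 fold change of 0.20, while DESeq2 called 7 higher and 2 lower and limma-voom 7 higher and 1 lower. With upper quartiles edgeR called 9 higher. Over all genes edgeR called 6.79% higher and 8.24% lower with trimmed means, and 9.89% higher with upper quartiles. The LIM protein gene Csrp1 measured 258 ± 30.1 CPM with colchicine and 179 ± 7.13 CPM in CKD (SD, n = 4; log2 0.53 ± 0.09, edgeR adjusted p = 0.00345). The tropomyosin Tpm2 measured 139 ± 25.9 CPM with colchicine and 93.7 ± 4.31 CPM in CKD (0.57 ± 0.12), and the junctional protein gene Jph2 7.29 ± 1.90 CPM with colchicine and 4.16 ± 0.0663 CPM in CKD (0.81 ± 0.20). Of the 20 mural genes, 5 were higher and 0 lower (also 0 lower at an unadjusted p below 0.05, by DESeq2 and by limma-voom), with a median of 0.31. With another scaling, 3 were higher by DESeq2's size factors in edgeR and 7 by upper quartiles. The 5 were the mitochondrial and hypoxia-linked pericyte genes Cox4i2 (1.15 ± 0.23) and Ndufa4l2 (0.66 ± 0.15), the pericyte marker Rgs5 (0.31 ± 0.09), its relative Rgs4 and the transcription factor Tbx2, the last pair named after their values were seen. Rgs5 measured 196, 155, 165 and 138 CPM in colchicine libraries 1 to 4 and 127 to 133 CPM in CKD, highest in the replicate in which Des, Cspg4 and Gli1 were lowest.

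Among the 10 other genes of PDGF signalling, 1 was higher with colchicine than in CKD, the ligand gene Pdgfa, and 0 were lower by edgeR (1 at an unadjusted p below 0.05), a count near the 6.79% of all genes called higher. It measured 85.7, 124, 125 and 120 CPM with colchicine, against 68.4 to 79.0 CPM in CKD, with no overlap (log2 0.65 ± 0.13, edgeR adjusted p = 0.00634). Pdgfb, Pdgfc and Pdgfd were not called (log2 0.31 ± 0.13, -0.28 ± 0.16 and -0.35 ± 0.14). None of the 16 Hedgehog genes was called by edgeR, with 5 at an unadjusted p below 0.05, while DESeq2 called 2 higher and 1 lower and limma-voom 2 higher and 0 lower. With upper quartiles, and without mitochondrially encoded transcripts, edgeR called 1 higher. Among the 16 regulators 1 was higher, the forkhead gene Foxs1, a pericyte-linked transcription factor, and 0 were lower by edgeR (1 at an unadjusted p below 0.05), again near that share. It measured 4.59, 6.57, 6.55 and 5.98 CPM with colchicine, against 2.34 to 2.95 CPM in CKD (log2 1.19 ± 0.17, edgeR adjusted p = 0.000949). Myocd, Mrtfa, Mrtfb and Srf had log2 fold changes of 0.09 ± 0.15, -0.01 ± 0.10, -0.04 ± 0.08 and 0.09 ± 0.11 and were not called.

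Of the 22 fibroblast genes, 5 were higher with colchicine than in CKD and 0 lower by edgeR (1 lower at an unadjusted p below 0.05), DESeq2 and limma-voom. By edgeR 17 were not called, and the median log2 fold change of the list was 0.09, against 0.03 for all genes. With DESeq2's size factors in edgeR 3 were higher, where 5.62% of all genes were. With trimmed means 6.79% of all genes were called higher and 8.24% lower. Col1a1 measured 1845, 1649, 1629 and 1958 CPM with colchicine, all above the 1125 to 1298 CPM of CKD (log2 0.52 ± 0.10, edgeR adjusted p = 0.00643). The intermediate filament gene Vim (0.39 ± 0.08) and Thy1 (0.35 ± 0.10) were also called, as were Col1a2 and Tnc, named after their values were seen. Endothelial markers summed to 639 to 704 CPM with colchicine and 562 to 626 CPM in CKD, with 3 of 10 higher (Egfl7, Tie1 and Flt1). Macrophage markers summed to 1077 to 1631 CPM with colchicine and 1635 to 1691 CPM in CKD, with 4 of 8 lower, and proximal tubule markers to 469 to 946 CPM with colchicine and 1137 to 1457 CPM in CKD, with 4 of 8 lower. Striated muscle genes summed to 4.02 to 9.02 CPM with colchicine and 3.45 to 4.92 CPM in CKD, and glial genes to 34.0 to 41.2 CPM with colchicine and 28.5 to 35.03 CPM in CKD. Erythrocyte markers summed to 13.6 to 38.3 CPM with colchicine and 32.0 to 92.5 CPM in CKD, with 0 of 4 called by edgeR (2 lower at an unadjusted p below 0.05) and by limma-voom, and 1 lower by DESeq2. Urothelial markers summed to 23.0 to 35.4 CPM with colchicine and 15.2 to 39.2 CPM in CKD, and adipocyte markers to 81.9 to 295 CPM with colchicine and 51.5 to 239.7 CPM in CKD, with 0 of either list called by edgeR (0 at an unadjusted p below 0.05), DESeq2 or limma-voom. The part of these cell types in the 5 calls was not tested.

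Against control, which both other comparisons share libraries with, 8 of the 10 genes were higher and 2 lower in colchicine kidneys, where 37.1% of all genes were called higher and 33.4% lower. The log2 fold changes were 1.47 for Acta2, 2.12 for Tagln, 0.81 for Myl9, 1.68 for Des, 1.61 for Pdgfra, 2.05 for Pdgfrb, 0.56 for Cspg4 and 2.53 for Gli1. Myh11 and Cnn1 were lower (-0.40 ± 0.16 and -0.56 ± 0.21, edgeR adjusted p = 0.0402 and 0.0305) and turned higher with library totals only (0.64 and 0.47, adjusted p = 0.00178 and 0.0489). Neither was called without control replicate 2, control replicate 3 or colchicine replicate 2, and 1 of the pair was called without control replicate 1, colchicine replicate 1 or colchicine replicate 4. Colchicine replicate 3, at 102 CPM of Myh11, lay inside the control range of 81.6 to 108 CPM. Cspg4 also overlapped between these groups, while the other 8 genes did not. Across all genes tested, 32.2% lay wholly above control and 30.3% wholly below.

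Within groups the 10 genes did not vary as 1 unit. Over deviations of log2 CPM from the group means in the 12 libraries, Pearson's r of the 45 gene pairs had a median of 0.31 and ran from -0.56 for Acta2 with Pdgfra to 0.92 for Des with Myl9. Des, Myl9, Cspg4 and Pdgfrb went together, with r from 0.73 to 0.92. Each of them was lowest in replicate 1 among the colchicine libraries, and the part of that library in these r values was not tested. Acta2 followed Tagln (0.77) and Myh11 followed Cnn1 (0.69), while Tagln and Myh11 stood at 0.04. These values share library, depth and scaling. The spread within groups differed by gene, with a coefficient of variation of 29.5% with colchicine and 2.78% in CKD for Des, but 10.1% with colchicine, 11.7% in CKD and 17.4% in control for Pdgfra.

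**Figure D5:**
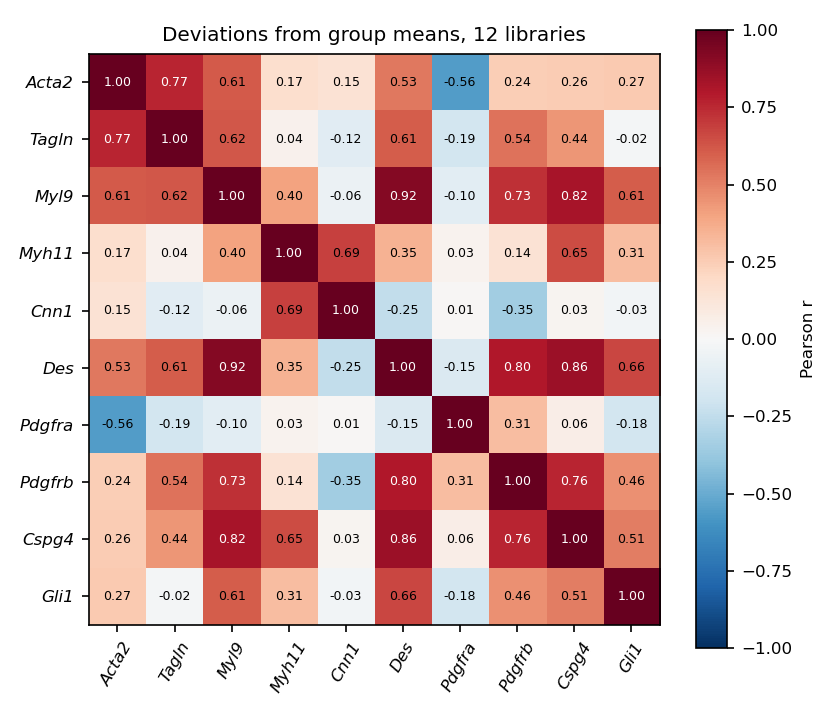
Pearson's r between the 10 genes over deviations of log2 CPM from the group means (12 libraries, 3 groups of 4). Rows and columns are genes and the colour scale runs from -1 to 1. The block of Des, Myl9, Cspg4 and Pdgfrb reaches 0.73 to 0.92, and each of these genes was lowest in replicate 1 among the colchicine libraries. The pair Myh11 and Cnn1 reaches 0.69, and Pdgfra has no r above 0.31 with another gene of the set.

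Among 14018 genes with a mean count of 50 or more, the deviations most like those of Acta2 belonged to Drg2, Rangrf and Coasy (r of 0.91, 0.88 and 0.88 over the 12 libraries). Those most like Pdgfra belonged to Chrnb1, Npnt and Spon1 (0.92, 0.91 and 0.89), and those most like Gli1 to Relb, Kif26a and Shf (0.99, 0.94 and 0.94). Npnt, which encodes nephronectin, is also in the contractile list, and the other 8 are in none of the lists used here. Among the colchicine libraries, replicate 1 was the lowest for Gli1, Relb, Kif26a and Shf alike. All these r values describe the libraries at hand and were not tested.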

How the data were processed

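RNA of 12 mouse kidneys was extracted with RNAiso Plus reagent, and the CORALL kit (version V2) was used for the libraries, as the labels' protocols state. The submitters' processing notes name fastp, STAR, Salmon and the GRCm39 build. Versions, settings and any use of molecular identifiers are not given in the sources consulted. The estimated counts (expected counts) per gene that the authors deposited were already whole numbers, and all 28 values of 1000000 or more were multiples of 10. Library totals set the counting error, which is only part of the spread between libraries.

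Groups came from the sample titles. Genes were kept by filterByExpr with a minimum count of 10, and 3 group means were fitted to all 12 libraries with edgeR 4.0.16 (R 4.3.3), after scaling by trimmed means of M-values (TMM). Two-sided quasi-likelihood F tests were adjusted by Benjamini-Hochberg over 17841 genes. Log2 CPM used a prior count of 2. The fits were tested on simulated data.

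The 10 markers and the 15 other gene lists (173 genes) were chosen with earlier results of these data known. Named were the 10 markers, a set of pathway genes whatever their result, the 3 genes of each list with the smallest p among those called, and the 3 genes most like Acta2, Pdgfra and Gli1. Replicate numbers were not used to pair samples in the main fit, because the labels do not state that they pair animals. Alternatives were DESeq2 1.42.0, limma-voom (limma 3.58.1), other scalings and filters, a 1.5-fold threshold, a fit of 8 libraries, a replicate block, a slope on the labelled adenine percentage, and fits that omit libraries. Tables of GRCm38 were used only for promoter sequences.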

Additional observations from a re-analysis of the deposited data

Results flagged for a closer look

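In 2 of 30 sets of 4 libraries, each set being 1 gene in 1 group, a library stood apart from the other 3 by Dixon's test, where chance gives about 1 in 20, or 1.5 of 30. Both concern Pdgfrb. CKD replicate 4 held 154 CPM, against 179 to 183 CPM in the other CKD libraries. Control replicate 1 held 63.9 CPM, against 49.3 to 51.7 CPM in the other control libraries. Without CKD replicate 4 the log2 fold change of Pdgfrb was 0.30 for colchicine against CKD (edgeR adjusted p = 0.0995), against 0.36 with all libraries. For CKD against control it was 1.75 without CKD replicate 4 and 1.79 without control replicate 1, against 1.70 with all libraries.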

How the results depend on the processing

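For CKD against control, 8 of the 10 genes were called higher under every alternative except the 1.5-fold threshold, where Cspg4 and Myl9 were not called. The 2 lower genes became 0 with library totals only, with library totals without mitochondrially encoded transcripts and at the 1.5-fold threshold. With library totals only, the log2 fold changes of Myh11 and Cnn1 turned to 0.30 and 0.20. For colchicine against CKD, the 5 higher genes became 0 at the 1.5-fold threshold, with the adenine slope read at 2%, with colchicine replicate 1 alone and with colchicine replicates 1 and 4 only, became 3 in a fit of only the 8 libraries, and ranged from 0 to 5 when single libraries were left out. With colchicine replicate 1 alone, the lone library is assumed to vary like the other groups, so a lost call there says nothing about that library. Same-numbered libraries did not deviate together (r of -0.12 to 0.19 for colchicine and CKD, -0.28 to -0.00 for CKD and control), and with a replicate block 1 gene was called. Pdgfra, near 0, turned to 0.056 with upper-quartile scaling, 0.021 with library totals only, 0.033 without mitochondrially encoded transcripts, 0.0091 with a filter at CPM of 1, 0.10 with the adenine slope, 0.081 with colchicine replicate 1 alone, and ran from -0.047 to 0.076 without single libraries. With colchicine replicate 1 alone, Myh11 turned to -0.029, Des to -0.14, Cspg4 to -0.32, Myl9 to -0.10 and Gli1 to -0.65. With the adenine slope read at 2%, Cspg4 and Gli1 turned to -0.13 and -0.28, and with colchicine replicates 1 and 4 only to -0.10 and -0.13. For colchicine against control, the 2 lower genes became 0 with upper-quartile scaling, library totals only, library totals without mitochondrially encoded transcripts and the 1.5-fold threshold, became 1 with no low-count filter, a filter at CPM of 1, only the 8 libraries, colchicine replicate 1 alone and colchicine replicates 1 and 4 only, and ranged from 0 to 2 without single libraries. There Myh11 turned to 0.64 with library totals only and 0.10 without mitochondrially encoded transcripts, and Cnn1 to 0.47 with library totals only. The cause of these changes was not tested.

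Over all genes, 1212 were higher and 1470 lower for colchicine against CKD, against 12 and 28 at the 1.5-fold threshold, 392 and 616 with the adenine slope, 537 and 644 with colchicine replicate 1 alone, 266 and 306 with replicates 1 and 4 only, 419 to 2882 and 573 to 3519 without single libraries, 694 higher with the replicate block and 2258 lower with DESeq2. At the 1.5-fold threshold 3582 were higher and 3320 lower for CKD against control. The low counts of Gli1 and Cnn1 limit the precision of their values. Likewise, 4 libraries a group limit the precision of the increases seen with colchicine in the 10 genes. In the main fit these increases stayed under 1.5-fold. The largest, for Des, had a log2 fold change of 0.58 (95% interval 0.21 to 0.95) and was larger without colchicine replicate 1.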
